A study of Sus scrofa with 35 samples.

Results

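The tricarboxylic acid (TCA) cycle enzymes were examined in back muscle (longissimus dorsi) of growing pigs, through 9 genes: CS, IDH2, IDH3A, IDH3B, OGDH, SUCLG1, SDHA, FH and MDH2. Members were the non-control array probes that carried one of these names in any case in the scanner files. The names of 8 of the 9 genes were carried by 37 of 60305 probes, and all 37 passed the filter on low intensity, which kept 41517 probes. OGDH, a subunit of the 2-oxoglutarate dehydrogenase complex, was carried by no probe under that name and gave no value. The only probe named FH, after fumarate hydratase, carried the accession of another gene, so it gave no value for FH, which left 7 enzymes and 36 probes.

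The muscle RNA of 35 castrated male pigs was hybridised to 1-colour arrays, 1 pig per array. The pigs were Creole, Large White or their F1 cross, slaughtered either under thermoneutral conditions (TN) or after heat stress (HS). There were 6 arrays each of Creole TN, Creole HS, F1 TN, Large White TN and Large White HS, and 5 of F1 HS. All pigs entered the climatic room at 11 weeks of age and had 10 days to adapt. A thermoneutral phase of 9 days at 24 °C followed. TN pigs were slaughtered in the days before the temperature rise, so they need not have completed it. The protocol gives a heat challenge at 32 °C with slaughter after 4 or 5 days, whereas the sample labels give 30 °C for HS, and this disagreement was not resolved. The TN pigs came from other pens and were killed ahead of the heat challenge, so temperature cannot be told apart from slaughter day, age and pen. The paper reports that feed intake fell in the challenged pigs. No TN group with matched intake was included, so temperature cannot be told apart from feed intake either. Each breed was made of a few blocks of littermates, and parentage was not in the labels.

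The TCA cycle runs in the mitochondrial matrix and oxidises the acetyl group carried by acetyl-CoA to carbon dioxide. The electrons it releases reduce NAD+ and FAD, and the respiratory chain uses them to make ATP, so muscle fibres rich in mitochondria hold much of these enzymes. Citrate synthase (CS) opens the cycle, isocitrate dehydrogenases and the 2-oxoglutarate dehydrogenase complex release carbon dioxide, and succinate dehydrogenase and malate dehydrogenase regenerate oxaloacetate. CS activity is widely used as a marker of mitochondrial content in muscle.

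Probes are oligonucleotides of 60 bases, and the sequences shown here, as deposited in the scanner files, show how far probes of one gene are independent. Overlapping probes of one enzyme are not independent measurements. The brightest CS probe and its neighbour are shown with their shared 55 bases in capitals, and a second CS pair is shown with its longest shared run, 35 bases, in capitals.
CS A_72_P072591: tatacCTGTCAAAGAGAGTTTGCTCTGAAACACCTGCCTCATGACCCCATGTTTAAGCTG
CS A_72_P652677: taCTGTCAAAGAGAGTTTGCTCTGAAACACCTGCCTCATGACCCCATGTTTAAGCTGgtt
CS A_72_P537441: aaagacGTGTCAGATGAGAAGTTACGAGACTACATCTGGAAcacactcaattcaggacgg
CS A_72_P124631: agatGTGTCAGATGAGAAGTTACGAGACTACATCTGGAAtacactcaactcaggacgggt
Over the 58 bases in which the second pair overlaps, the sequences differed by 3 substitutions, C6T, C42T and T51C, with positions counted from the 5′ end of A_72_P537441 and its base written first. Both probes were nevertheless lower in HS, by a log2 difference of -0.24 and -0.20. The longest run shared by the 2 SDHA probes below is 44 bases, in capitals, and they also share bases in lower case before it. The 2 IDH3B probes share 32, in capitals.
SDHA A_72_P380073: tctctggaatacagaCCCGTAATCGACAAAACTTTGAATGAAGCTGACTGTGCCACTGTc
SDHA A_72_P602068: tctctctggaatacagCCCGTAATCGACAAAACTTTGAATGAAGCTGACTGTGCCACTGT
IDH3B A_72_P098771: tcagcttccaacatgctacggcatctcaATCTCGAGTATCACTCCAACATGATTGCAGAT
IDH3B A_72_P165726: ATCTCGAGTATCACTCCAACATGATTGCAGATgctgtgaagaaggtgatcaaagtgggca
IDH2 and SUCLG1 are shown by 1 probe each, without capitals. The breed difference turns on the first gene, and the second was called lower in HS by 1 of its 2 probes, the one shown. The IDH2 probe shown is not the brightest one, from which the IDH2 levels and breed difference given below were taken.
IDH2 A_72_P757430: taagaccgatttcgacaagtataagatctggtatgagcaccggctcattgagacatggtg
SUCLG1 A_72_P035951: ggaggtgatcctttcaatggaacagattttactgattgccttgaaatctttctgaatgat
In 3 pairs of probes (1 each for CS, IDH2 and IDH3A) the whole sequence was identical, so that the pair measured the same target from different spots. The SD over arrays of the difference within such a pair was 0.06 to 0.08 log2, and their HS minus TN differences lay within 0.02 of each other.

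In HS muscle 6 of the 7 enzymes were lower than in TN muscle, at differences of -26.7% to -14.3%, and IDH2 did not pass the threshold by its brightest probe. Each enzyme was taken by the probe with the highest mean over all arrays, and temperature was tested with breed in the model, using limma with Benjamini-Hochberg adjustment over all 41517 probes at 0.05. For the direction lower, 8.30% of all probes were called in this comparison (7.73% higher and 16.0% in either direction). The median log2 difference HS minus TN was -0.26 over the 7 enzymes, against -0.02 over all probes. Of the 36 probes, 33 were called lower and all 36 had a difference below 0, with a median of -0.28. Since these are bulk samples, fewer cells of a type and less RNA per cell cannot be told apart.

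**Figure D1:**
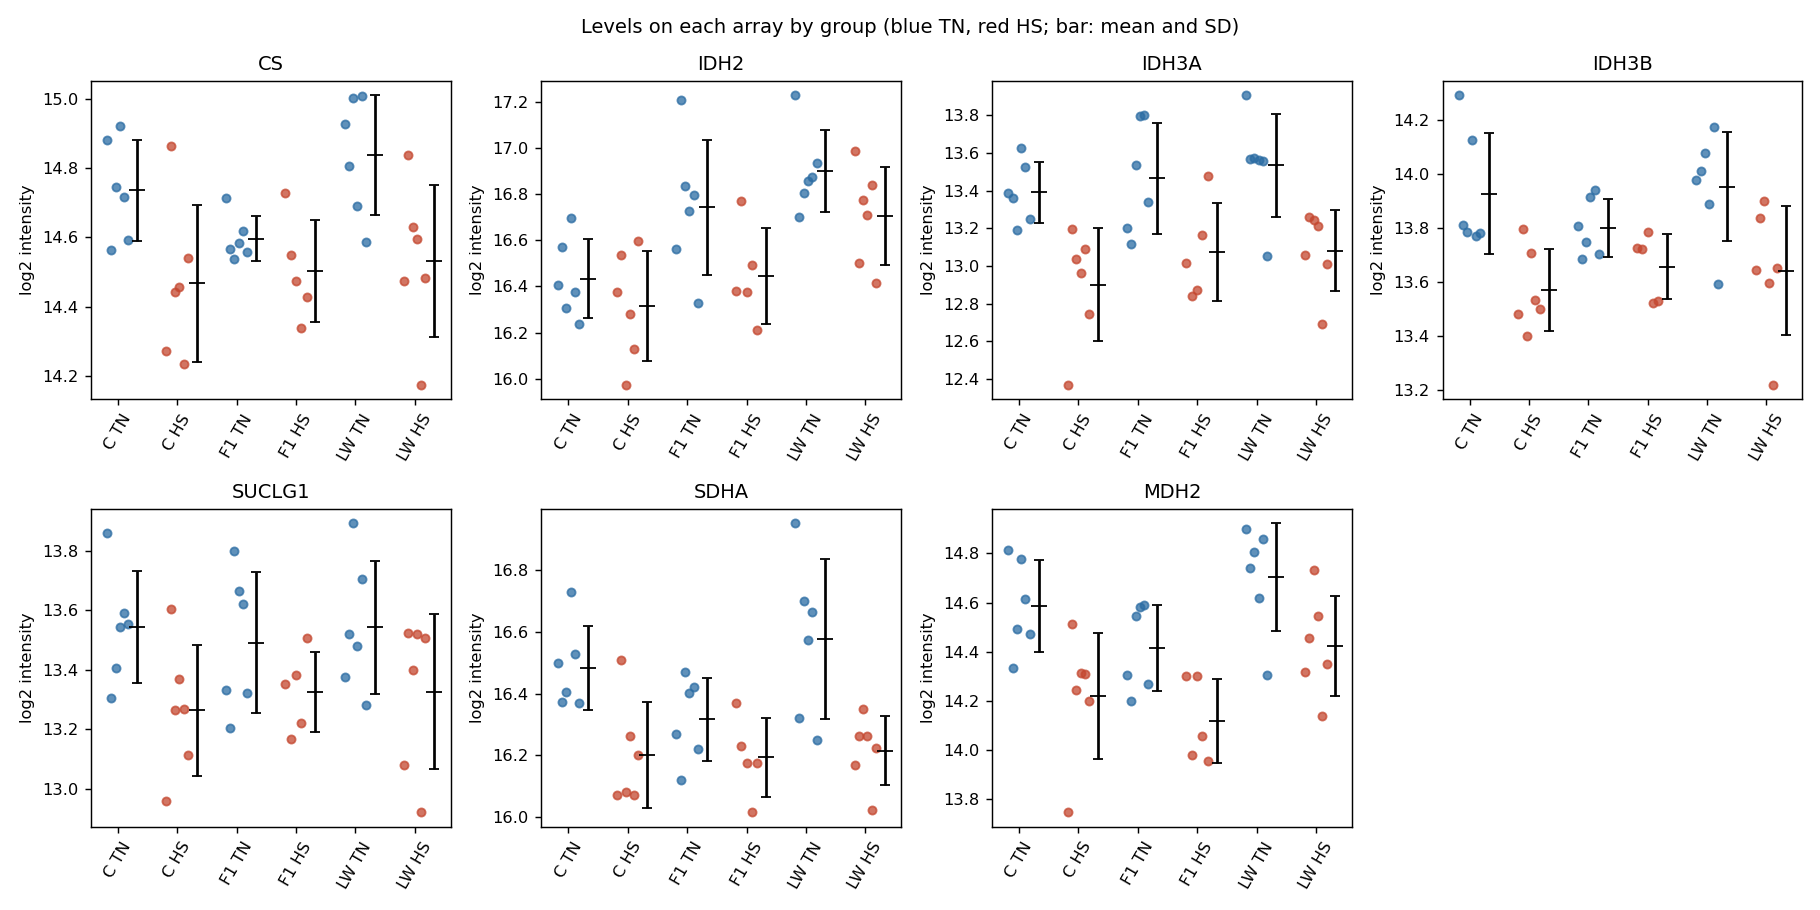
Level of each of the 7 enzymes on each of the 35 arrays (y axis, normalised log2 intensity of the probe with the highest mean) in the 6 groups (x axis; C, Creole; LW, Large White; blue, TN; red, HS), with the mean and SD of each group in black. HS points sit lower than TN points of the same breed for the 7 enzymes with overlap between groups, as for IDH3A, where HS arrays ranged from 12.37 to 13.48 and TN arrays from 13.05 to 13.90.

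IDH3A, the catalytic subunit of the NAD-dependent isocitrate dehydrogenase, had the largest difference of the 7 enzymes. In Creole TN its log2 level ranged from 13.19 to 13.63 with a median of 13.37, and in Creole HS from 12.37 to 13.20 with a median of 13.00. In F1 TN it ranged from 13.12 to 13.80 with a median of 13.44, and the 5 F1 HS arrays were at 13.02, 12.84, 12.87, 13.16 and 13.48. In Large White TN it ranged from 13.05 to 13.90 with a median of 13.57, and in Large White HS from 12.69 to 13.26 with a median of 13.13. The temperatures overlapped, although all 17 HS arrays lay below the TN median and 10 of 18 TN arrays lay above the highest HS array. The difference was -0.45 (SE 0.08, limma adjusted p = 0.000556), or -26.7%, and all 6 IDH3A probes were called lower, between -0.47 and -0.39.

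IDH3B, a regulatory subunit of the same enzyme, had a TN mean of 13.89 ± 0.19 (SD, n = 18) against an HS mean of 13.62 ± 0.17 (SD, n = 17). TN arrays ranged from 13.59 to 14.29 with a median of 13.85, and HS arrays from 13.22 to 13.90 with a median of 13.64. All 17 HS arrays lay below the TN mean of their breed, although the ranges overlapped. The difference was -0.27 (SE 0.06, limma adjusted p = 0.00366), and its 4 probes were all called lower, from -0.37 to -0.27. IDH2, the NADP-dependent mitochondrial isocitrate dehydrogenase, had a TN mean of 16.69 ± 0.29 (SD, n = 18) against an HS mean of 16.49 ± 0.27 (SD, n = 17). Its difference was -0.20 (SE 0.07, limma adjusted p = 0.0570), and 13 of 17 HS arrays lay below the TN mean of their breed. Of its 5 other probes 4 were called lower. The exception was the dimmest, at a mean log2 intensity of 9.71, with a difference of -0.17 (limma adjusted p = 0.224).

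CS, which condenses acetyl-CoA with oxaloacetate, had a TN mean of 14.72 ± 0.16 (SD, n = 18) against an HS mean of 14.50 ± 0.19 (SD, n = 17). TN arrays ranged from 14.54 to 15.01 with a median of 14.70, and HS arrays from 14.17 to 14.86 with a median of 14.47. The ranges overlapped, and 10 of 17 HS arrays lay below the lowest TN array. The difference was -0.23 (SE 0.06, limma adjusted p = 0.00982), with all 8 probes called lower, from -0.29 to -0.20.

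SUCLG1, the alpha subunit of succinyl-CoA ligase, had a TN mean of 13.53 ± 0.21 (SD, n = 18) against an HS mean of 13.30 ± 0.20 (SD, n = 17). TN arrays ranged from 13.21 to 13.89 with a median of 13.53, and HS arrays from 12.92 to 13.60 with a median of 13.35. The difference was -0.22 (SE 0.07, limma adjusted p = 0.0303). Its second probe, at a mean log2 intensity of 5.94 and well above background on 34 of 35 arrays, was not called (-0.07, limma adjusted p = 0.579). When 1 array was left out in turn, the SUCLG1 call was lost without Creole TN replicate 1, Creole HS replicate 1, Large White TN replicate 3, Large White HS replicate 1 or Large White HS replicate 5, with limma adjusted p-values of 0.0512 to 0.0545.

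SDHA, the flavoprotein subunit of succinate dehydrogenase, which is also complex II of the respiratory chain, had a TN mean of 16.46 ± 0.21 (SD, n = 18) against an HS mean of 16.20 ± 0.13 (SD, n = 17). TN arrays ranged from 16.12 to 16.95 with a median of 16.41, and HS arrays from 16.01 to 16.51 with a median of 16.20. The difference was -0.26 (SE 0.06, limma adjusted p = 0.00304), and all 6 probes were called lower. Its probes differed in size of change along with their brightness, from -0.26 at a mean log2 intensity of 16.33 to -0.41 at 10.57. Over the 6 SDHA probes Spearman rho of mean level with log2 difference was 0.94, given as a description, against 1 over the 4 IDH3B probes and -0.54 over the 6 IDH3A probes.

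MDH2, the mitochondrial malate dehydrogenase that closes the cycle, had a TN mean of 14.57 ± 0.22 (SD, n = 18) against an HS mean of 14.26 ± 0.24 (SD, n = 17). TN arrays ranged from 14.20 to 14.90 with a median of 14.59, and HS arrays from 13.75 to 14.73 with a median of 14.30. The difference was -0.31 (SE 0.07, limma adjusted p = 0.00226), with all 4 probes called lower, from -0.34 to -0.31.

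**Figure D2:**
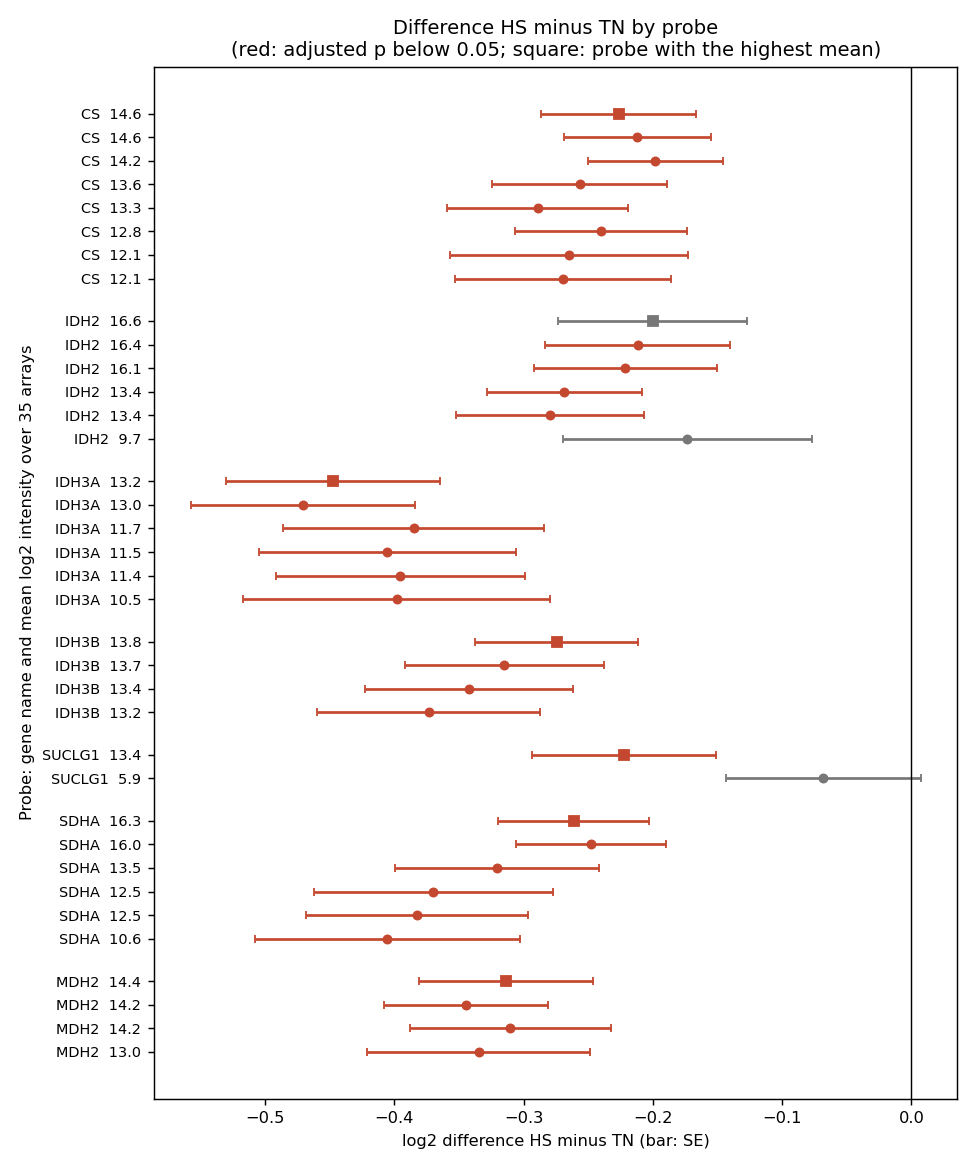
Log2 difference HS minus TN (x axis, with its SE as a bar) of each probe of the 7 enzymes (y axis, gene name with the mean log2 intensity over 35 arrays, brightest first within a gene; red, called at 0.05; square, the probe used for the gene). All 36 enzyme probes lie below 0, the 6 IDH3A probes between -0.47 and -0.39, and the dimmest SDHA probe, at -0.41, lies within their range.

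Whether IDH3A changed more than the other enzymes was tested on the ratio of 2 enzymes within each array, with temperature labels permuted within breed (two-sided, 100000 resamples) for all 21 pairs of enzymes. The IDH3A difference was the lower one in its 6 pairs, by 0.13 to 0.25 log2. After Benjamini-Hochberg adjustment over the 21 pairs it passed the threshold against SUCLG1 alone (-0.22, permutation adjusted p = 0.0403), and not against CS (permutation adjusted p = 0.0710), SDHA (0.0710), IDH3B (0.144), MDH2 (0.144) or IDH2 (0.157). No other pair of enzymes passed.

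The samples differed in other ways between the temperatures. Of 14 leukocyte marker genes with a kept probe, 6 rose in HS (LYZ, CD74, AIF1, CSF1R, TYROBP and FCER1G), the median log2 difference was 0.72, and PTPRC, the pan-leukocyte CD45 gene, was at -0.02 (limma adjusted p = 0.906) with its 2 other probes called higher. Their summed level ranged from 12.58 to 15.45 log2 over TN arrays and from 13.83 to 15.92 over HS arrays, and the B cell marker MS4A1 was well above background on 24 of 35 arrays. With the mean leukocyte marker level as a covariate, 2 enzymes were called, IDH3A (-0.27, limma adjusted p = 0.0291) and IDH2 (-0.29, limma adjusted p = 0.0283). SUCLG1 was at -0.02, and CS, IDH3B, SDHA and MDH2 lay between -0.17 and -0.13. Of 10 connective tissue markers 3 rose (COL3A1, LUM and FN1). Of the 3 red blood cell markers with a kept probe, HBB fell by 1.21 log2 (limma adjusted p = 0.000536), while ALAS2 was at -0.23 (limma adjusted p = 0.103) and SLC4A1 at 0.37 (limma adjusted p = 0.123). Their summed level ranged from 10.45 to 12.06 log2 over TN arrays and from 11.01 to 12.22 over HS arrays. Of the 6 endothelial markers VWF alone was called, lower in HS at -0.36 (limma adjusted p = 0.00226), and none of the 5 adipocyte markers with a kept probe was called.

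Array brightness, the 75th percentile of log2 intensity before normalisation, had a TN mean of 9.05 ± 0.17 (SD, n = 18) against an HS mean of 9.24 ± 0.24 (SD, n = 17), and the share of probes well above background ranged from 58.4% to 75.9% over arrays. With brightness as a covariate 2 enzymes were called, IDH3A (-0.32, limma adjusted p = 0.0110) and MDH2 (-0.19, limma adjusted p = 0.0416), and the other 5 lay between -0.21 and -0.12. The share of the TCA cycle differences that goes with leukocyte RNA, connective tissue or array brightness was not tested beyond these fits. Of the 10 markers that define skeletal muscle all were measured on the arrays, where MYH2 and TNNI2 were lower and DES was higher in HS. Of the 9 slow fibre markers with a kept probe only CASQ2 was called, higher in HS, and with the mean slow fibre marker level as a covariate all 7 enzymes were called lower. Of the 9 fast fibre markers with a kept probe 2 were called, both lower in HS, ATP2A1 at -0.46 (limma adjusted p = 0.00353) and TNNI2 at -0.15 (limma adjusted p = 0.0262). By their brightest probes MYH4 was at -0.01 and TNNT3 at -0.23, neither called, although 6 of 9 other MYH4 probes and 3 of 4 other TNNT3 probes were called lower. The part of fast fibre and endothelial RNA in the enzyme differences was not tested.

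The arrays lay on 5 slides, of which 4 held 4 TN and 4 HS arrays each. Within these 4 slides CS, IDH2, IDH3A, IDH3B, SDHA and MDH2 were lower in HS on every slide, for IDH3A by between -0.70 and -0.26. The size varied, and on the second slide SDHA was at -0.01, CS at -0.04, MDH2 at -0.07, IDH3B at -0.08 and SUCLG1 at 0.07. IDH2 and IDH3A were at -0.24 and -0.26 on that slide. SUCLG1 was lower on 3 of the 4, with a range of -0.52 to 0.07. The fifth slide held 3 arrays, 2 of Large White TN and 1 of Creole HS, and gave no within-breed value. With slide as a fixed block all 7 enzymes were called lower, IDH2 at -0.19 (limma adjusted p = 0.0479).

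**Figure D3:**
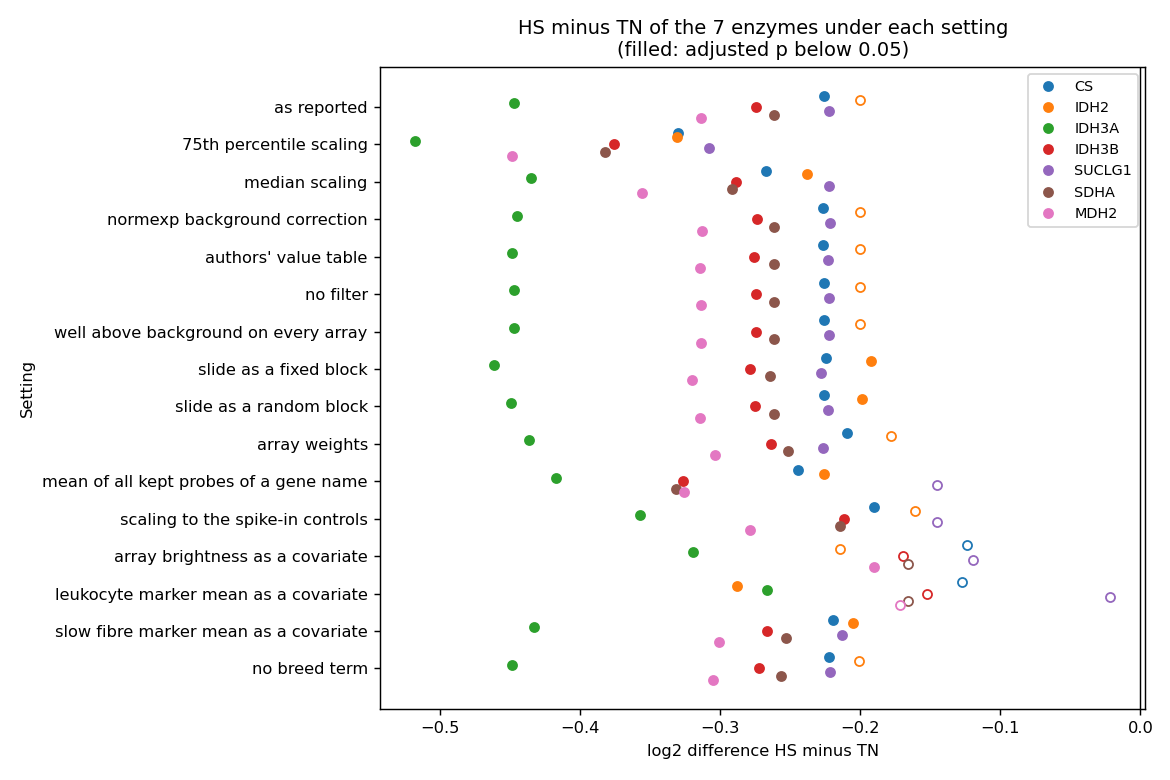
Log2 difference HS minus TN (x axis) of the 7 enzymes (colours) under each processing setting (y axis; filled, adjusted p below 0.05; open, not). Every value lies below 0, and 2 enzymes are called under each of the settings with array brightness or the leukocyte marker mean as a covariate.

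Within a single breed the differences had the same sign but did not pass the threshold. In Creole the 7 enzymes were at HS minus TN differences of -0.49 to -0.12, with the smallest limma adjusted p of 0.0637 for IDH3A, and 1.91% of all probes were called in this comparison (1.03% higher and 0.874% lower). In F1 the range was -0.39 to -0.09 and in Large White -0.46 to -0.20, where 0.00482% of probes were called in each. CS was at -0.27 (SE 0.10) in Creole, -0.09 (SE 0.11) in F1 and -0.30 (SE 0.10) in Large White, SDHA at -0.28, -0.12 and -0.36, and IDH3B at -0.36, -0.14 and -0.31. IDH3A was at -0.49 (SE 0.14), -0.39 (SE 0.15) and -0.46 (SE 0.14). One SDHA probe (mean log2 intensity 10.57) was called within Creole, at -0.64 (limma adjusted p = 0.0461).

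The difference between breeds in their temperature effect was tested itself by a moderated F-test of the interaction. No enzyme was called (smallest unadjusted p over the 36 probes 0.237, limma adjusted p 0.963), nor was any probe of the array, 1593 of which had an unadjusted p below 0.05. Single arrays moved the counts within a breed. Without Large White TN replicate 6, which was the lowest array of its group for 6 of the 7 enzymes, 3 enzymes were called within Large White (IDH3A, IDH3B and SDHA). Without Creole HS replicate 2, the highest of its group for 6 of the 7, 5 were called within Creole. The first of these arrays was the brightest of its group (9.40). The second was the dimmest of its group (8.92), with the group's lowest share of probes well above background (63.9%). The part of brightness in these shifts was not tested.

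IDH2 was the enzyme that differed between the parental breeds, and it was lower in Creole than in Large White at both temperatures. In Creole TN its log2 level ranged from 16.24 to 16.70 with a median of 16.39, and in Large White TN from 16.70 to 17.23 with a median of 16.87. In Creole HS it ranged from 15.97 to 16.60 with a median of 16.33, and in Large White HS from 16.42 to 16.99 with a median of 16.74. All 12 Creole arrays lay below the Large White mean at the same temperature, and 8 of them lay below the lowest Large White array of either temperature. F1 TN ranged from 16.33 to 17.21 with a median of 16.76, and the 5 F1 HS arrays were at 16.38, 16.77, 16.37, 16.49 and 16.21, so the F1 overlapped both parental breeds.

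The Creole minus Large White difference of IDH2, with temperature in the model, was -0.43 (SE 0.09, limma adjusted p = 0.00339), or -25.7%. All 6 IDH2 probes were called lower, between -0.50 and -0.33. It was the 1 enzyme of 7 called in this comparison, where 1.92% of all probes were called lower (1.73% higher and 3.64% in either direction). On each of the 4 slides that held both breeds at both temperatures, the plain difference of breed means was below 0, from -0.66 to -0.15. These slide values were not adjusted for temperature, and on the fifth slide breed and temperature coincided. Taken within each temperature the IDH2 difference was -0.47 in TN and -0.39 in HS. Neither was called when the arrays of that temperature were fitted alone (limma adjusted p = 0.108 and 0.324). Fitted beside the mean leukocyte marker level it was -0.40 (limma adjusted p = 0.00308), and beside the mean slow fibre marker level -0.45 (limma adjusted p = 0.00222). Tissue markers also differed between these breeds. Of 10 connective tissue markers 2 were called lower in Creole, of 6 endothelial markers 2, and of 14 leukocyte markers 1, with 0 called higher in each list. The part of connective tissue and endothelial RNA in the IDH2 difference was not tested.

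**Figure D4:**
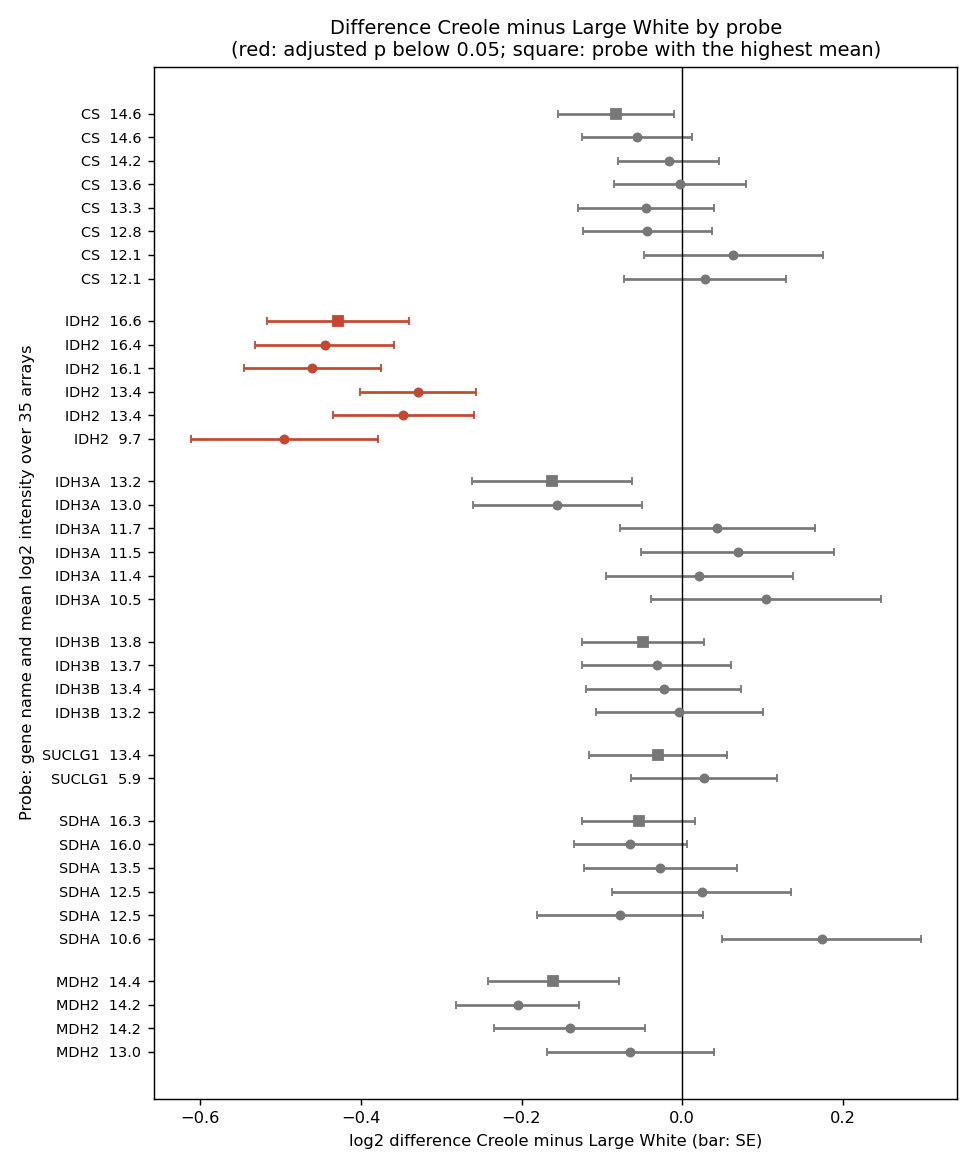
Log2 difference Creole minus Large White (x axis, with its SE as a bar) of each probe of the 7 enzymes (y axis, gene name with the mean log2 intensity over 35 arrays; red, called at 0.05; square, the probe used for the gene). The 6 IDH2 probes lie between -0.50 and -0.33 and are the called ones, whereas probes of the other enzymes lie on both sides of 0, between -0.20 and 0.17.

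The other 6 enzymes differed between Creole and Large White by -0.16 to -0.03 (smallest limma adjusted p of the 6, 0.347 for MDH2). Whether IDH2 stood apart from them was tested on within-array ratios in the 24 Creole and Large White arrays, with breed labels permuted within temperature for all 21 pairs. The IDH2 difference was the lower one in its 6 pairs, and passed after adjustment against SDHA (-0.37, permutation adjusted p = 0.00525), IDH3B (-0.38, permutation adjusted p = 0.0247) and CS, from which it differed by 0.35 (permutation adjusted p = 0.0247). It did not pass against SUCLG1 (permutation adjusted p = 0.0605), MDH2 (0.137) or IDH3A (0.157), and no pair without IDH2 passed.

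No enzyme was called by its brightest probe between the F1 and either parental breed or their midpoint. MDH2 came closest, with F1 minus Large White at -0.30 (SE 0.08, limma adjusted p = 0.106) and F1 minus midpoint at -0.22 (SE 0.07, limma adjusted p = 0.350). MDH2 levels were 14.42 ± 0.18 (SD, n = 6) in F1 TN, 14.12 ± 0.17 (SD, n = 5) in F1 HS, 14.70 ± 0.22 (SD, n = 6) in Large White TN and 14.42 ± 0.20 (SD, n = 6) in Large White HS. One of its 3 other probes was called in F1 minus Large White (-0.32, limma adjusted p = 0.0465), where 0.525% of all probes were called (0.260% higher and 0.265% lower). F1 IDH2 lay at 0.01 (SE 0.08) from the midpoint, -0.20 (SE 0.09) from Large White and 0.22 from Creole, none of them called. In F1 minus Creole 0.477% of probes were called (0.301% higher and 0.176% lower), and in F1 minus midpoint 0.246% (0.188% higher and 0.0578% lower).

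No 2 enzymes had the same order of the 6 group means. For CS, IDH3A, IDH3B, SUCLG1 and SDHA the 3 TN means all lay above the 3 HS means. Large White TN was the highest group for CS, IDH2, IDH3A, IDH3B, SDHA and MDH2, and Creole TN for SUCLG1, while Creole HS was the lowest for CS, IDH2, IDH3A, IDH3B and SUCLG1 and F1 HS for SDHA and MDH2. Most neighbours in these orders differed by less than the larger SD of the 2 groups. The exceptions were Creole TN above Large White HS for IDH3A (a gap of 0.31), Large White HS above F1 HS for IDH2 (0.26), Creole TN above F1 TN for SDHA (0.17) and F1 TN above F1 HS for IDH3B (0.14).

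From array to array within groups, 6 of the enzymes varied together, and no pair with IDH2 passed the test. Residuals from the group means were correlated over 35 arrays for the 21 pairs, with two-sided permutation tests of 100000 resamples and Benjamini-Hochberg adjustment over the pairs. The 15 pairs without IDH2 all passed by Pearson r, which ranged from 0.41 to 0.76. Examples are CS with IDH3B (r = 0.76, permutation adjusted p = 3.5e-05, Spearman rho = 0.72, permutation adjusted p = 8.4e-05, r = 0.70 without the 2 arrays farthest from the median of CS) and SDHA with MDH2 (r = 0.73, permutation adjusted p = 3.5e-05, rho = 0.77, permutation adjusted p = 5.25e-05, r = 0.69 without the 2 farthest arrays). The weakest of the 15 was CS with IDH3A (r = 0.41, permutation adjusted p = 0.0194, rho = 0.32, permutation adjusted p = 0.0832), and it was 0.28 without the 2 farthest arrays, so it rests on them.

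The 6 pairs with IDH2 ranged from -0.31 with SUCLG1 (permutation adjusted p = 0.0915) to 0.26 with SDHA (permutation adjusted p = 0.152), and none passed by r or rho. The values of a pair come from the same labelled RNA and the same array, which is shared variation that these correlations include. Array brightness was not removed from the residuals. Large White HS replicate 5, the lowest array of its group for 6 of the 7 enzymes, was the brightest of that group (9.62). The part of brightness in these correlations was not tested. The share of pairs among all probes that would pass was not computed. Within breeds, r of IDH2 with SDHA was 0.63 in Creole, -0.09 in F1 and 0.27 in Large White, and r of IDH2 with SUCLG1 was -0.05, -0.23 and -0.64. Among the 15 pairs without IDH2, r ranged from 0.39 to 0.89 in Creole, from -0.29 to 0.75 in F1 and from 0.43 to 0.90 in Large White. The pairs below 0 in F1 were CS with IDH3A (0.49 in Creole, -0.29 in F1 and 0.79 in Large White) and CS with SUCLG1 (0.68, -0.11 and 0.78), and IDH3A with IDH3B was at 0.08 in F1, where 11 arrays entered.

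**Figure D5:**
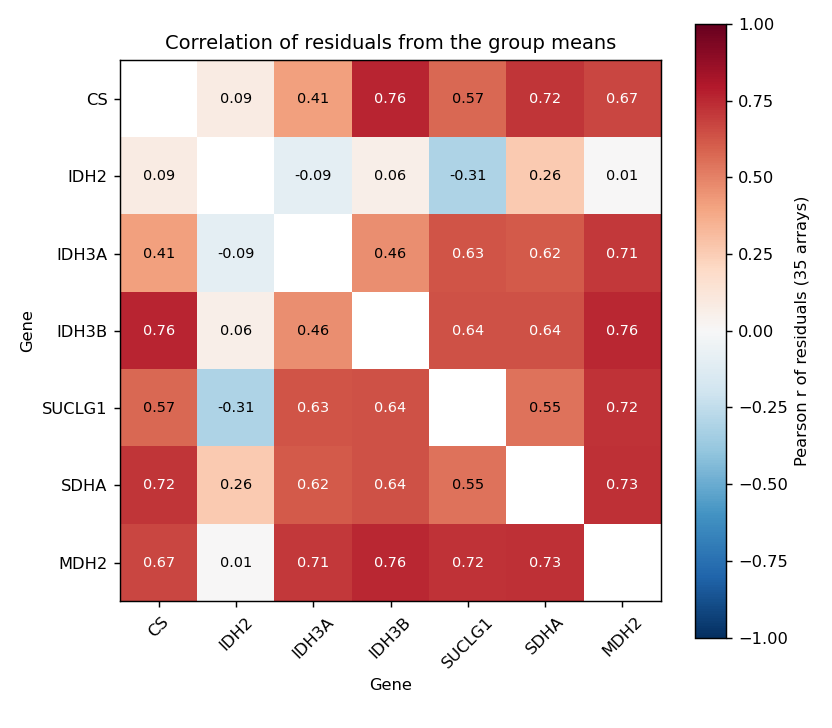
Pearson r over 35 arrays between the residuals from the group means of each pair of the 7 enzymes (both axes, genes; colour and printed value, r). IDH2 has values of -0.31 to 0.26 with the other 6, which have 0.41 to 0.76 among themselves.

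The mean of the residuals of the members was set against 18690 kept probes with a gene symbol outside the members. The 5 genes with the highest Pearson r over 35 arrays, given as a description, were CYC1 (0.90), NDUFA11 (0.88), UQCR11 (0.88), COQ9 (0.87) and COX5B (0.87). CYC1 and UQCR11 encode subunits of complex III of the respiratory chain, NDUFA11 of complex I and COX5B of complex IV, and COQ9 takes part in coenzyme Q synthesis. Of these probes CYC1, UQCR11, COQ9 and COX5B were also lower in HS, by -0.36, -0.19, -0.30 and -0.31, and NDUFA11 was at -0.18 (limma adjusted p = 0.0739).

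The other subunits and enzymes of the cycle moved in the same direction in part. Of 8 listed genes (IDH3G, DLST, DLD, SUCLA2, SUCLG2, SDHB, SDHC and SDHD) 7 had a kept probe, and 5 were lower in HS with none higher. Their median log2 difference was -0.23. DLST and DLD, the succinyltransferase and dihydrolipoyl dehydrogenase of the 2-oxoglutarate dehydrogenase complex, were at -0.23 (SE 0.05, limma adjusted p = 0.00279) and -0.39 (SE 0.09, limma adjusted p = 0.00407).

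SUCLA2, the ADP-forming partner of SUCLG1, was lower by -0.35 and in all 17 HS arrays against the TN mean of their breed, whereas SUCLG2, the GDP-forming partner, was at 0.03 (SE 0.09, limma adjusted p = 0.856), with its 2 other probes below 0 and neither called. SDHB, the iron-sulphur subunit of succinate dehydrogenase, was lower by -0.29 in all 17 HS arrays, with its 8 other probes also called lower. SDHD, one of the membrane anchors of that enzyme, was at -0.06 (limma adjusted p = 0.534), and none of its 8 other probes was called. IDH3G, the third subunit of the NAD-dependent isocitrate dehydrogenase, was at -0.23 (limma adjusted p = 0.0237).

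Among 16 enzymes that feed or drain the cycle 14 had a kept probe, 6 were lower in HS and none was higher. The aspartate aminotransferases GOT1 (cytosolic) and GOT2 (mitochondrial) were at -0.55 (SE 0.13, limma adjusted p = 0.00421) and -0.31 (SE 0.06, limma adjusted p = 0.00171), and the cytosolic malate dehydrogenase MDH1 was at -0.26 (SE 0.06, limma adjusted p = 0.00400). These 3 and MDH2 are enzymes of the malate-aspartate shuttle. Of the pyruvate dehydrogenase complex, PDHB, DLAT and PDHX were lower by -0.18, -0.27 and -0.27, although the other PDHB probe was not called. PDHA1 was at -0.20 (SE 0.14, limma adjusted p = 0.367) with 3 of its 4 other probes called lower. PC, PCK2, GLUD1, ACO1, ME1, ME2 and ME3 lay between -0.22 and 0.24 and were not called.

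Of 8 regulators of mitochondrial biogenesis 6 had a kept probe, and 2 were lower in HS. They were the orphan nuclear receptor ESRRA (-0.25, SE 0.08, limma adjusted p = 0.0256) and TFAM, the transcription factor of mitochondrial DNA (-0.21, SE 0.04, limma adjusted p = 0.000982, below the TN mean of the breed in all 17 HS arrays). The coactivator PPARGC1A was at -0.29 (SE 0.13, limma adjusted p = 0.144). None of the genes of these 3 lists was called between Creole and Large White.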

How the data were processed

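The members and the gene lists were chosen with earlier results of these data known. The authors labelled RNA with Cy3, hybridised it to Agilent porcine arrays and read the spots with Agilent Feature Extraction 10.10.1.1. The deposited scanner files hold spot intensity on a linear scale. The deposited table of 40649 probes holds log2 values, which the authors quantile-normalised and filtered on expression; every column matched the array it was labelled with, and it served as an alternative.

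Here the median spot intensity was quantile-normalised without background subtraction and log2 was taken. Of the spots, 105 with an outlier flag were set to missing, none was saturated, and spots of a probe were averaged. A probe was kept if at least 75% of the arrays in any 1 group had it well above background. Tests used limma 3.58.1 in R 4.3.3 on all 35 arrays, additive in breed and temperature, or with 1 mean per group within breeds and for the interaction. The study's random terms (pen, slaughter day, parents) were not in the labels, so littermates counted as independent and p-values may be too small. The number of arrays limits the precision. Permutations used Python 3.11.15. Each gene was named by its probe with the highest mean, with the other probes counted, and genes of the fixed lists were given values where called; uncalled ones beside them were added after their values were seen, as were the tests on within-array ratios. The fits were also run on simulated data with independent noise for each probe and array. These held no litter, pen or brightness structure, so that run cannot show how far such structure affects the p-values. Symbols came from the scanner files, checked against RefSeq accessions where these had a symbol, and no genome position is given. One further gene of the other cycle subunits is not reported here, and counts are over the 8 that remain. Alternatives were other scalings, filters, background correction, slide, array weights, probe averaging, covariates and leaving out each array.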

Additional observations from a re-analysis of the deposited data

How the results depend on the processing

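The sign of HS minus TN was below 0 for the 7 enzymes under all 15 other settings and without each of the 35 arrays, with values from -0.52 to -0.02. The number of enzymes called, 6, was 5 to 7 except with array brightness or the leukocyte marker mean as a covariate, which gave 2 each, and it was 5 to 7 without each array. IDH2 was called under 75th percentile scaling (-0.33), median scaling, slide as a fixed or random block, averaging of its probes (-0.23), and the leukocyte and slow fibre covariates, and without each of 8 single arrays. SUCLG1 was not called when its probes were averaged (-0.15) or when the spike-in controls set the scale (-0.15). Of 105 HS minus TN values under the other settings, 87 kept their side of the threshold, 11 lost and 7 gained a call. Pooled over all comparisons, most of which had no called enzyme to lose, there were 2807 values of the 7 enzymes under alternatives. Of these, 2749 kept their direction and side of the threshold or stayed uncalled. A call was lost in 18 and gained in 40, and 0 reversed as called values. The causes were not tested.

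Between Creole and Large White the count of 1 (IDH2) became 0 on TN arrays alone and 0 on HS arrays alone, where fewer arrays entered, and was 1 without each array. Between F1 and Large White the count of 0 became 1 (MDH2) under median scaling, array weights, scaling to the spike-in controls and each of the covariates array brightness and leukocyte mean, with 0 to 1 without each array (1 without Large White TN replicate 6). F1 against the midpoint had 1 with array brightness. Within Creole the count of 0 became 1 with array weights and 3 with the slow fibre covariate, with 0 to 5 without each array (1 without Creole TN replicate 3, 5 without Creole HS replicate 2, 2 without Large White HS replicate 5 and 2 without Large White TN replicate 6). Within F1 it became 1 with array weights, and within Large White it was 0 to 3 without each array. The interaction stayed at 0 in all settings. The pairs of enzymes past the threshold numbered 15, 19 under 75th percentile scaling and 15 with the authors' value table. Counts over all probes for HS minus TN ranged from 2092 with array brightness to 9158 with array weights, against 6654, and were 2357 with the leukocyte covariate. No paired analysis was possible because TN and HS arrays came from different pigs and the labels do not give the blocks of littermates.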
